A study of Danio rerio with 16 samples.

Results

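Most of the genes described here encode proteins of the cytosolic ribosome in zebrafish embryos, measured after an injection of insulin or of phosphate-buffered saline (PBS). Members were taken by name: gene symbols that begin with rps or rpl and a number, with rplp or with rpsa, in upper or lower case, leaving out the ribosomal S6 kinases, rps19bp1 and the mitochondrial ribosomal proteins. The rule found 87 of the 31452 genes in the deposited tables, 49 with names of the large and 38 with names of the small subunit, on 25 chromosomes. By name it also took in rpl7l1 and a chromosome 2 locus of rpl37, whose identities are given below. Embryos with the ABTL genetic background, aged 4 days after fertilization, were injected with 1 nl of fluid into the caudal aorta, and 10 embryos were pooled for each RNA sample. Insulin-injected embryos received human recombinant insulin, whose dose is not given in the sources used here, and PBS-injected embryos received the buffer. Both treatments were sampled at 0.5 and at 4 hours post injection (hpi), with 4 libraries in each of the 4 groups. The comparison of insulin with PBS asks how the embryo's transcripts respond to an excess of insulin.

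A cytosolic ribosome is built from ribosomal RNA and about equal amounts of each ribosomal protein, and its large and small subunits are assembled in the nucleolus before they are exported. Vertebrate ribosomal protein mRNAs begin with a terminal oligopyrimidine (TOP) tract, through which the kinase complex mTORC1, an effector of insulin signalling, controls their translation and stability together with LARP1. Ribosomal protein S6, the product of rps6, is the best known substrate of the S6 kinases downstream of mTORC1. Extra copies of several ribosomal protein genes were kept in fish after genome duplication, and free RPL5 and RPL11 are known from mammals to bind MDM2 and stabilise p53.

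The libraries held 6535173 to 9628705 counted reads, and 83 of the 87 members had at least 500 reads in each library. All 87 passed the filter on low counts and were tested. Levels are counts normalised to library size (CPM) with TMM scaling and are not divided by transcript length, so they were compared between libraries and not between genes. Each sample is a pool of a whole embryo's tissues, in which a change in the proportion of cells and a change in RNA per cell cannot be told apart. The 4 libraries of insulin at 0.5 hpi (replicates 1 and 2), PBS at 0.5 hpi (replicate 1) and insulin at 4 hpi (replicate 1) stood apart from the other 12. They had 2.77 to 4.50 CPM of wdr90, against 33.3 to 95.5 in the rest, and for si:dkey-15h8.1 they had 2.08 to 2.80 CPM where the others had 92.2 to 135. The summed level of erythroid markers was 4617 to 6538 CPM in these 4, against 1799 to 2913 in the others. PBS replicates 2 and 3 of the 0.5 hpi group hardly differed: 0 of the 87 members, and 89 of 20557 genes, differed between them beyond counting error, against 747 genes or more in each other pair within a group. A chi-square over all genes was 2.88 per gene for this pair. It was 2.60 for insulin replicates 2 and 3 at 4 hpi, where 751 genes differed, so it does not show separate pools. The headers of both PBS libraries name lane 2, and whether they are 1 library sequenced again was not tested. Both were kept as labelled. Members named below that lose their call at 4 hpi when the pair is summed as 1 sample are given with that value.

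Ribosomal protein genes took 4.69% to 7.22% of the reads of a library, and the highest shares were in single libraries rather than in whole groups. In the 4 libraries that stood apart the share was 5.87% to 7.22%, against 4.69% to 6.79% in the rest. At 0.5 hpi the family took 5.87%, 6.26%, 5.69% and 5.79% of reads in the insulin libraries, and 6.81%, 5.55%, 5.68% and 4.90% in the PBS libraries. These groups overlapped throughout, with both the highest and the lowest share in a PBS library. At 4 hpi the share was 7.22%, 5.47%, 5.24% and 6.79% in the insulin libraries, and 4.69%, 4.94%, 5.17% and 5.06% in the PBS libraries. All 4 insulin libraries lay above all 4 PBS libraries, replicates 1 and 4 by a wide margin and replicate 3 by a narrow one. The mean share at 4 hpi was 6.18 ± 0.973% after insulin and 4.96 ± 0.207% after PBS (SD, n = 4 each). Within the family the balance of the subunits did not move in this way: the reads of large subunit genes over those of small subunit genes lay between 1.39 and 1.45 in the 16 libraries. At 0.5 hpi this ratio was 1.419 to 1.434 after insulin and 1.439 to 1.448 after PBS, a small gap that was not tested. The groups overlapped at 4 hpi.

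**Figure D1:**
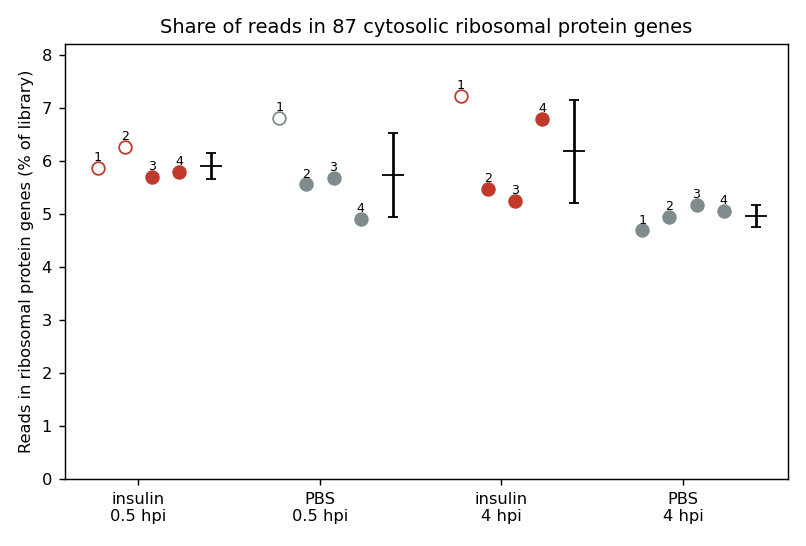
The percentage of each library's reads that fell in the 87 ribosomal protein genes is plotted by group, 1 point per library with its replicate number; open points mark the 4 libraries that stood apart, and bars give the mean ± SD (n = 4). At 4 hpi the insulin libraries spread from 5.24% to 7.22%, above the PBS libraries at 4.69% to 5.17%.

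The members rose and fell from library to library as a block. On the log2 scale, with each gene set against its own mean over the 16 libraries, the median deviation of the 87 members at 4 hpi was 0.50, -0.06, -0.18 and 0.28 in the insulin libraries, and -0.31, -0.23, -0.18 and -0.21 in the PBS libraries. Insulin replicates 1 and 4 therefore held the family well above its mean level, while insulin replicate 3 was level with PBS replicate 3. At 0.5 hpi the median deviation was 0.04, 0.19, -0.01 and 0.03 in the insulin libraries, and 0.39, 0.00, 0.03 and -0.27 in the PBS libraries. The median over all genes stayed near 0 in each library on this scale.

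A typical member varied by an SD of 0.254 (log2) over the 16 libraries, and by 0.067 once the median of the family was removed from each library. As a description over the 16 libraries, which share depth and scaling among all members, each member was correlated with the median of the others. Of the 87 members, 76 had a correlation of at least 0.9, and the median correlation was 0.965. The 11 members below 0.9 were RPS17L, rpl3, rpl38, rpl12, rps28, rplp0, the chromosome 25 locus of rps27.2, the second locus of rps20, the chromosome 2 locus of rpl37, rpl7l1 and rps8b. The lowest values were 0.588 for rpl7l1 and -0.107 for rps8b. Among the libraries, PBS replicate 1 at 4 hpi was the one in which members differed most from each other, with quartiles of -0.44 and -0.21 around its median.

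**Figure D2:**
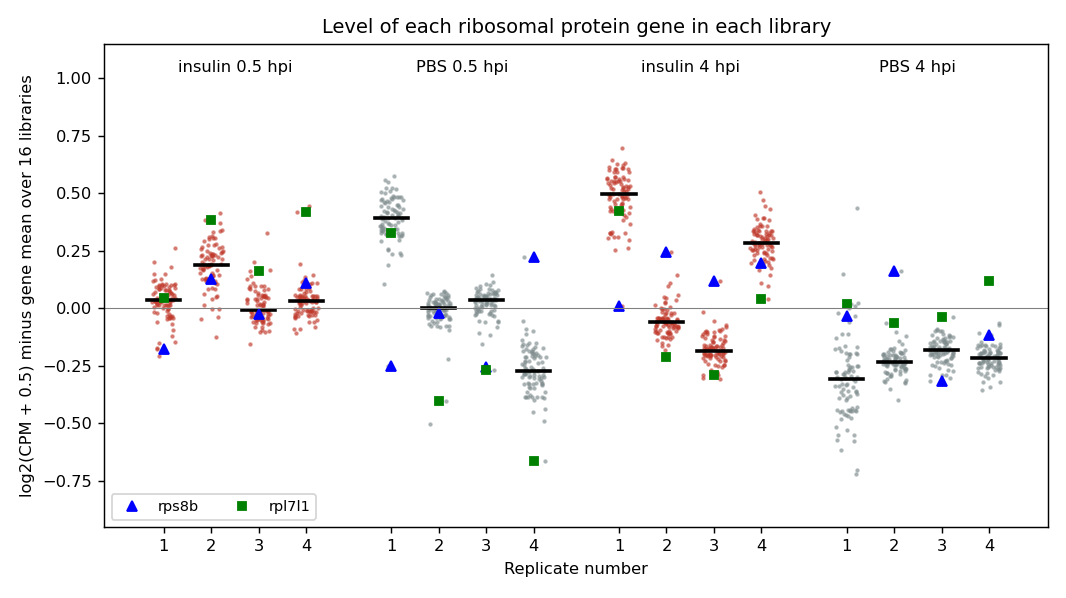
Each dot is 1 of the 87 genes in 1 library, as log2(CPM + 0.5) minus the mean of that gene over the 16 libraries; black lines are medians over the genes, and triangles and squares mark rps8b and rpl7l1. Most dots of a library lie close to its median, from 0.50 in insulin replicate 1 at 4 hpi to -0.31 in PBS replicate 1 at 4 hpi.

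At 4 hpi many ribosomal protein mRNAs were higher after insulin than after PBS. The members rose and fell together, so the counts of members below repeat the same libraries and are not independent. The family as a whole was not tested. Of the 87 members, 43 passed as higher and 0 as lower in the edgeR quasi-likelihood test (adjusted p under 0.05 over 21650 genes), against 14% of all genes higher and 14.6% lower. The median log2 change of the members was 0.40, a 1.32-fold difference, against 0.01 for all genes, and the estimate was positive for all 87 members. The 43 that passed had log2 changes of 0.33 to 0.66 with adjusted p of at most 0.0498, and a further 29 members had an adjusted p between 0.05 and 0.1. The subunits shared this, with 24 of 49 large subunit genes and 19 of 38 small subunit genes higher. In 30 members the 4 insulin libraries did not overlap the 4 PBS libraries, all with insulin higher, against 16.3% of all genes with such a gap upward and 17.2% downward.

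The number of members called at 4 hpi rests on few libraries. It was 7 without insulin replicate 1 and 6 without insulin replicate 4, the libraries with the highest levels, and 77 without insulin replicate 3. It was 5, 9, 22 and 15 without PBS replicates 1, 2, 3 and 4 at 4 hpi. The libraries of 0.5 hpi share the fit, with its filter, scaling and estimate of spread. Leaving out single ones moved the number of members called at 4 hpi too. It was 70, 27, 27 and 65 without PBS replicates 1, 2, 3 and 4 at 0.5 hpi, and 28 without insulin replicate 4. Summing the nearly identical PBS pair at 0.5 hpi gave 27, all among the 43, and the other 16 then had an adjusted p of up to 0.0607. Without the 4 libraries that stood apart, 1 of which was an insulin library at 4 hpi and none a PBS library at 4 hpi, 48 members were called, all higher, with a median of 0.26, against 17.4% of all genes higher and 17.8% lower. Among the libraries whose headers name lane 5, 2 with insulin and 3 with PBS, 0 members were called, with a median of 0.40. The 2 with insulin were replicate 1, which stood apart and had a median deviation of 0.50, and replicate 3, at -0.18. In the fit on lane 5 alone 19 members had an unadjusted p under 0.05, and the number among all genes is not given. Of all 21515 genes tested in it, 1242 passed as higher and 1710 as lower. With all libraries these were 3035 and 3158 of 21650 genes. Fewer genes were thus called as a whole, and whether the members lost more calls than other genes was not tested. The sequencing lane is named for only part of the libraries. The median stayed between 0.26 and 0.48 whichever single library was left out. For fits without 1 library, here and below, the share of all genes called is not given. Such swings in the count are thus not shown to be particular to the members.

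**Figure D3:**
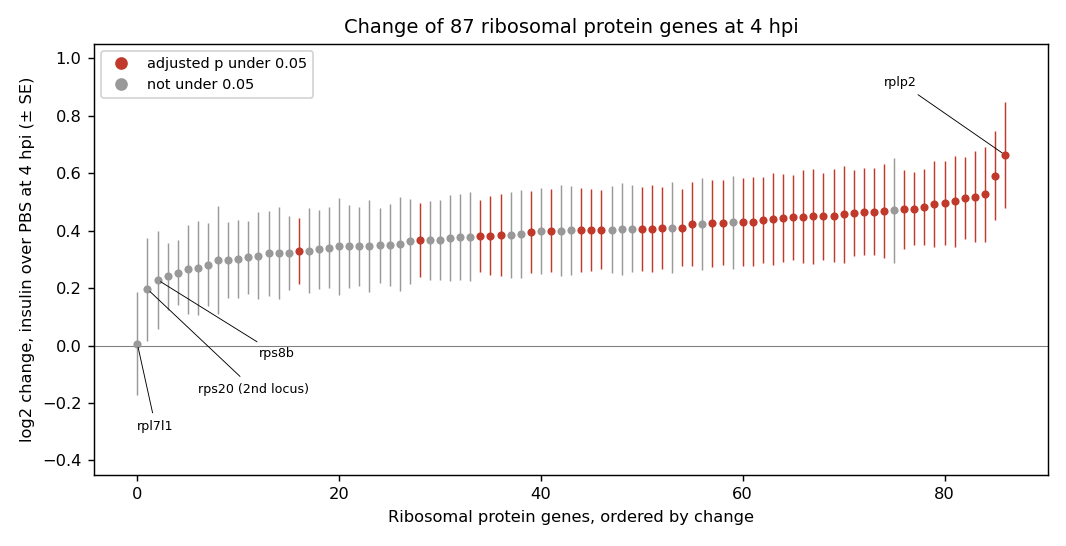
The log2 change of insulin over PBS at 4 hpi is plotted for each of the 87 genes with its standard error, ordered by size; red points passed at an adjusted p under 0.05. All estimates are positive, from 0.01 for rpl7l1 to 0.66 for rplp2.

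Of the genes for the stalk of the large subunit, which recruits and activates the elongation factors, rplp0, rplp2 and rplp2l passed at 4 hpi and rplp1 did not. The stalk is formed by RPLP0, the protein that anchors the stalk to the ribosome, and by the acidic proteins RPLP1 and RPLP2. The level of rplp0 was 2274, 2046, 1827 and 2279 CPM in the insulin libraries at 4 hpi, against 1292, 1565, 1651 and 1549 CPM in the PBS libraries. The groups did not overlap, and the log2 change was 0.48 ± 0.13 (SE), with an adjusted p of 0.00923. This gene followed the rest of the family less closely than most, with a correlation of 0.819. Its level in insulin replicate 2 at 4 hpi lay about midway between replicate 3 and replicates 1 and 4. In replicate 2 the median of the family was closer to that of replicate 3.

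rplp2 showed the largest change in the family. It had 431, 277, 257 and 414 CPM in the insulin libraries and 179, 221, 242 and 228 CPM in the PBS libraries at 4 hpi. Every insulin library was above every PBS library, replicates 2 and 3 only slightly, and the log2 change was 0.66 ± 0.18 (adjusted p 0.0119). Its paralogue rplp2l, with 547, 432, 385 and 524 CPM after insulin and 297, 338, 376 and 327 CPM after PBS, changed by 0.50 ± 0.15 (adjusted p 0.0159). The share of rplp2l in the reads of the pair was 55.9% to 60.9% in the insulin libraries and 58.9% to 62.4% in the PBS libraries, so the split between the copies overlapped. The third stalk gene, rplp1, did not pass: it had 1484, 871, 781 and 1181 CPM in the insulin libraries and 975, 808, 824 and 791 CPM in the PBS libraries, with a log2 difference of 0.35 ± 0.17 and an adjusted p of 0.132. Insulin replicate 3 was below all 4 PBS libraries, so its groups overlapped.

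Other large subunit genes also passed. rpl10a, whose protein forms the stalk on the opposite side of the subunit and in mammals marks ribosomes that prefer certain mRNAs, had 1209, 829, 809 and 1099 CPM after insulin at 4 hpi, against 585, 721, 768 and 753 CPM after PBS, a change of 0.48 ± 0.13 (adjusted p 0.0109). rpl24, which encodes a protein at the bridge between the subunits, had 907, 649, 581 and 838 CPM after insulin and 457, 539, 554 and 533 CPM after PBS, a change of 0.51 ± 0.14 (adjusted p 0.0114). In both genes the lowest insulin library lay just above the highest PBS library. rpl10, whose protein joins late in the maturation of the large subunit, changed by 0.49 ± 0.15 (adjusted p 0.0178) without overlap of its groups.

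At 4 hpi 5 members, among them rplp0, rpl10a, rpl24 and rplp2, passed whichever of the 16 libraries was left out, with adjusted p of at most 0.0475. The other 38 members called missed the threshold in at least 1 of these fits. Summing the nearly identical PBS pair left these named genes at adjusted p of 0.0132 to 0.0157, and leaving out the 4 libraries that stood apart gave 0.00102 to 0.0181.

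**Figure D4:**
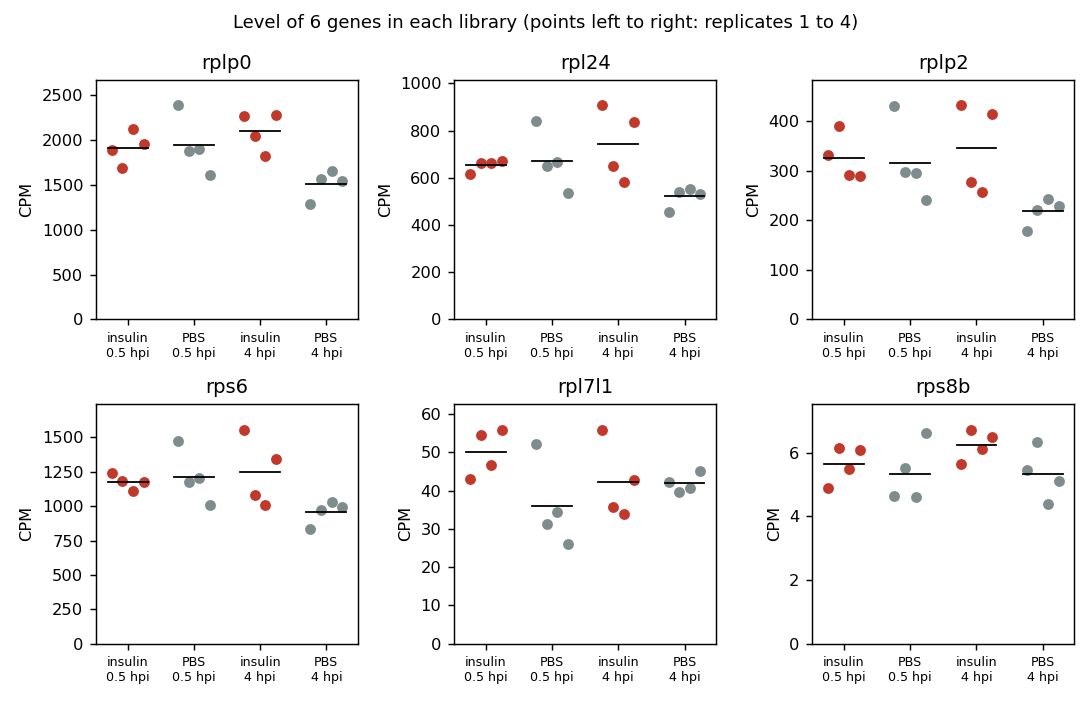
CPM of 6 members in each of the 16 libraries, with a line at the mean of each group (n = 4); the axes start at 0. For rplp0, rpl24 and rplp2 the 4 insulin libraries at 4 hpi lie above the 4 PBS libraries, for rps6 they overlap, and rpl7l1 and rps8b do not follow this pattern.

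Among the small subunit genes, rps13 had the smallest p, with 560, 433, 428 and 563 CPM in the insulin libraries at 4 hpi and 330, 349, 375 and 374 CPM in the PBS libraries. Its groups did not overlap, and the log2 change was 0.47 ± 0.14 (adjusted p 0.0156). rps6, the S6 kinase substrate, had 1556, 1081, 1012 and 1342 CPM after insulin and 835, 971, 1028 and 994 CPM after PBS. It passed, with a change of 0.38 ± 0.14 and an adjusted p of 0.0415, but insulin replicate 3 was below PBS replicate 3, and the adjusted p was 0.0519 with the PBS pair at 0.5 hpi summed. rpsa, which encodes the laminin receptor precursor that is also a protein of the small subunit, changed by 0.37 ± 0.13 (adjusted p 0.0391).

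Some members named for known roles lay near the threshold. rps19, which in humans is mutated in Diamond-Blackfan anaemia, changed by 0.43 ± 0.15 (adjusted p 0.0412), and rps14, which is lost in the 5q- syndrome, by 0.40 ± 0.14 (adjusted p 0.0430), each with groups that overlapped. With the PBS pair at 0.5 hpi summed neither passed, with adjusted p of 0.0511 for rps19 and 0.0534 for rps14, and without the 4 libraries that stood apart rps19 had 0.0503. Both rpl5 copies and rpl11, the partners of 5S ribosomal RNA, lay just outside the threshold, with log2 differences of 0.40 for rpl5a, 0.37 for rpl5b and 0.43 for rpl11, and adjusted p of 0.0524, 0.0528 and 0.0529. The share of rpl5b in the reads of the pair was 49.9 ± 0.856% after insulin and 50.4 ± 1.82% after PBS at 4 hpi (SD, n = 4 each). rps26 had a difference of 0.33 ± 0.14 (adjusted p 0.0745), and its copy rps26l, with groups that did not overlap, changed by 0.41 ± 0.14 (adjusted p 0.0382).

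Several members with known roles of their own did not pass at 4 hpi. rpl3, which reaches towards the peptidyl transferase centre, had 2281, 1745, 1707 and 1944 CPM in the insulin libraries and 1444, 1672, 1696 and 1624 CPM in the PBS libraries. These did not overlap, yet the log2 difference was 0.25 ± 0.11 and the adjusted p 0.0985. rps2, whose protein lies at the mRNA entry site, was close to the threshold at 0.35 ± 0.13 (adjusted p 0.0519). rps27a, which is made as a fusion to ubiquitin, had a difference of 0.35 and an adjusted p of 0.0685. The differences of rps27.1 (0.36, adjusted p 0.0705), rpl22 (0.32, adjusted p 0.137), its paralogue rpl22l1 (0.34, adjusted p 0.0760) and rpl38 (0.27, adjusted p 0.223), which in the mouse is needed for the translation of Hox mRNAs, were smaller than the median of the family. rpl39, at the exit of the nascent peptide tunnel, did pass, with a change of 0.53 ± 0.17 and an adjusted p of 0.0231.

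Some loci held the smaller part of the reads of a pair with the same or a closely related symbol. The counting of near-identical sequence could shift such reads, so their values are uncertain. rps8b had 5.63, 6.72, 6.13 and 6.49 CPM in the insulin libraries and 5.45, 6.32, 4.40 and 5.12 CPM in the PBS libraries at 4 hpi, and its share of the reads of rps8a and rps8b was 0.382% to 0.885% over the 16 libraries. Its log2 difference was 0.23 ± 0.17 (adjusted p 0.323). The chromosome 25 locus of rps27.2 had 31.5, 23.1, 22.5 and 30.9 CPM after insulin and 24.5, 21.7, 19.6 and 23.0 CPM after PBS, a difference of 0.28 ± 0.14 (adjusted p 0.147). The second locus of rps20, ENSDARG00000095880 on chromosome 7, had 251, 165, 134 and 185 CPM after insulin and 223, 143, 134 and 142 CPM after PBS, a difference of 0.20 ± 0.18 (adjusted p 0.430). In these the groups overlapped.

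rpl7l1 had an estimate at an edge of the family's range at both times, and its difference from the family was not tested. It encodes a relative of RPL7 that in humans is an assembly factor of the large subunit and not a protein of the mature ribosome. At 0.5 hpi it had 43.0, 54.5, 46.6 and 55.9 CPM in the insulin libraries and 52.3, 31.4, 34.5 and 26.1 CPM in the PBS libraries. PBS replicate 1, one of the libraries that stood apart, was as high as the insulin libraries, and the other 3 PBS libraries were below all 4 of them. At 4 hpi it had 55.9, 35.9, 34.0 and 42.8 CPM after insulin and 42.2, 39.8, 40.6 and 45.2 CPM after PBS, a log2 difference of 0.01 ± 0.18 (adjusted p 0.984), the smallest in the family.

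At 0.5 hpi no ribosomal protein gene was called. In the edgeR test 0 of 87 passed, and DESeq2 called 0. Among all genes 0.388% passed the edgeR test, 0.166% as higher and 0.222% as lower. An unadjusted p under 0.05 was found for 2 members, and for 2809 of all 21650 genes. The median log2 difference of insulin against PBS was 0.00, with a range of -0.12 to 0.47, and 0 members had groups that did not overlap, against 3.20% of all genes upward and 2.91% downward. The 2 smallest p belonged to rpl7l1, with a difference of 0.47 ± 0.18 (adjusted p 0.250), and the chromosome 2 locus of rpl37, with 0.47 ± 0.19 (adjusted p 0.262). That locus had 6.39, 8.12, 8.30 and 9.05 CPM in the insulin libraries and 7.78, 4.44, 5.79 and 4.81 CPM in the PBS libraries, and the newer name table gives its identifier another symbol, COA1. On the lower side the 2 smallest p were those of rpl28, at -0.12 ± 0.15 (adjusted p 0.793), and rpl3, at -0.07 ± 0.11 (adjusted p 0.855).

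Both loci were called once PBS replicate 1 was left out. rpl7l1 then rose by 0.68 (adjusted p 0.0104) and the chromosome 2 locus of rpl37 by 0.64 (adjusted p 0.0486). Without all 4 libraries that stood apart, the values were 0.72 (adjusted p 0.000256) and 0.77 (adjusted p 0.0124), and these were the 2 members called, both higher, against 6.38% of all genes higher and 6.54% lower. At 0.5 hpi that fit holds only insulin replicates 3 and 4, against PBS replicates 2, 3 and 4. PBS replicates 2 and 3 are the nearly identical pair, and the fit was chosen after the data were seen. These limits hold for each such fit below. With the pair summed as well, the values were 0.76 (adjusted p 0.000531) and 0.78 (adjusted p 0.0196), again the 2 members called, against 5.38% of all genes higher and 5.33% lower. No other member was called at 0.5 hpi in any fit that was run. In humans rpl7l1 encodes an assembly factor, and the other locus now carries the symbol COA1. These calls are thus not calls of established proteins of the mature ribosome.

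The effect of insulin at 4 hpi minus that at 0.5 hpi was positive for 85 of 87 members, with a median of 0.40, but 0 passed the interaction test. An unadjusted p under 0.05 was found for 27 of the 87 members, and for 5604 of all 21650 genes. DESeq2 called 3 members, and the share of all genes that it called is not given. In the edgeR test 9.59% of all genes passed, 3.83% as higher and 5.76% as lower. rpl24 had a difference of 0.56 ± 0.20 (adjusted p 0.0845). The effect of insulin at 4 hpi was thus not shown to differ from that at 0.5 hpi for any single member. Leaving out PBS replicate 4 at 0.5 hpi gave 8 members and leaving out insulin replicate 3 at 4 hpi gave 3, all higher. The members with negative estimates were rpl7l1, at -0.46 ± 0.25 (adjusted p 0.258), and the chromosome 2 locus of rpl37, at -0.18 ± 0.26 (adjusted p 0.716). For rpl7l1 the interaction was -0.68 (adjusted p 0.0343) without PBS replicate 1 at 0.5 hpi and -0.88 (adjusted p 0.000609) without the 4 libraries that stood apart, where it was the 1 member called, against 7.10% of all genes lower and 5.99% higher. With the PBS pair summed as well it was -0.92 (adjusted p 0.000862).

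In PBS-injected embryos the family tended to be lower at 4 hpi than at 0.5 hpi, without passing the test. The log2 difference was negative for 84 of 87 members, with a median of -0.30, against -0.01 for all genes. In the edgeR test 0 members passed. DESeq2 called 5, all lower, and the share of all genes that it called is not given. An unadjusted p under 0.05 was found for 41 of the 87 members, and for 6357 of all 21650 genes. Among all genes 13.6% passed the edgeR test, 5.65% as lower and 7.96% as higher. Groups did not overlap, with 4 hpi lower, in 9 of the 87 members, near the 9.49% of all genes, and with 4 hpi higher in 0 members, against 11.2%. rplp2 had 179, 221, 242 and 228 CPM at 4 hpi and 429, 298, 295 and 241 CPM at 0.5 hpi (-0.54 ± 0.18, adjusted p 0.0586), with groups that overlapped narrowly. On the higher side the smallest p were those of rpl7l1 (0.21 ± 0.18, adjusted p 0.449) and the second locus of rps20 (0.04 ± 0.18, adjusted p 0.901). Over the fits without 1 library, the median was highest at -0.17 without PBS replicate 1 at 0.5 hpi. It was lowest at -0.39 without PBS replicate 4 at 0.5 hpi, where 35 members were called lower. Leaving out insulin replicate 1 at 4 hpi, which is in neither group but shares the fit, gave 12 called lower. Without the 4 libraries that stood apart 1 member was called lower, rpl36, and 1 higher, rpl7l1, with 9.12% of all genes lower and 10.4% higher. With the PBS pair summed as well rpl7l1 was the 1 member called.

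In insulin-injected embryos the levels at 4 and 0.5 hpi were not separated. The median log2 difference was 0.10, 0 members passed in the edgeR test and DESeq2 called 0. Among all genes 2.92% passed the edgeR test, 1.17% as higher and 1.75% as lower. An unadjusted p under 0.05 was found for 1 member, and for 3652 of all 21650 genes. No member had groups without overlap, against 4.38% of all genes upward and 5.69% downward. The member with that p was rpl12, a protein at the base of the stalk, with 1178, 932, 794 and 1196 CPM at 4 hpi and 746, 871, 826 and 860 CPM at 0.5 hpi, a difference of 0.31 ± 0.13 (adjusted p 0.235). The next was rps14, at 0.19 ± 0.14 (adjusted p 0.550). The lower estimates with the smallest p were those of rpl7l1, at -0.25 ± 0.18 (adjusted p 0.523), and the chromosome 2 locus of rpl37, at -0.17 ± 0.18 (adjusted p 0.701). Without the 4 libraries that stood apart rpl7l1 was the 1 member called, at -0.43 (adjusted p 0.0376), against 2.25% of all genes higher and 2.56% lower. The comparisons over time share their libraries with the comparisons of insulin and PBS, so a PBS library that is low or high at one time enters both.

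Other genes of the translation machinery were taken from lists chosen with earlier results of these data known. At 4 hpi, among 4 proteins of the ribosome or bound to it whose names fall outside the rule, 3 were higher: faua (0.47), faub (0.83) and gnb2l1 (0.38), which encode fusions with RPS30 and the scaffold RACK1. Of 32 other genes with TOP mRNAs, 8 were higher at 4 hpi, 25% of the list against 14% of all genes, and 0 lower, with a median of 0.30. They included eef2b, the elongation factor that moves the ribosome along the mRNA, at 3585 ± 154 CPM after insulin and 2415 ± 227 CPM after PBS (SD, n = 4 each), a change of 0.57 (adjusted p 0.0146). eif4ba, a cofactor of the initiation helicase, changed most, at 36.9 ± 3.77 CPM after insulin and 20.9 ± 1.46 CPM after PBS (0.82, adjusted p 2.08e-05).

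Mitochondrial ribosomal proteins, which are made in the cytosol and build the separate ribosome of the mitochondrion, had a median of 0.53 at 4 hpi: 52 of 73 were higher, 71.2% of the list, and 0 lower. mrps2 had the smallest p, with 31.9 ± 6.34 CPM after insulin and 19.5 ± 2.31 CPM after PBS (0.71, adjusted p 0.00119). Without the 4 libraries that stood apart 44 were higher, against 17.4% of all genes, with a median of 0.39 for the list. At 0.5 hpi none of the 73 was called in the edgeR test, where 0.388% of all genes were. Of the 73, 5 had an unadjusted p under 0.05, against 2809 of all 21650 genes, and the median was 0.12.

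Of 64 ribosome biogenesis genes, whose products assemble ribosomes, 9 were higher at 4 hpi, 14.1% of the list and near the 14% of all genes, and 4 were lower. Their median was 0.20, with 49 of 64 estimates positive, and its difference from the median of the ribosomal proteins was not tested. The higher ones included bysl, an assembly factor of the small subunit (0.72), nat10, the ribosomal RNA acetyltransferase (0.65), and bop1, a factor of large subunit processing (0.54). The lower ones were ubtf, the transcription factor of RNA polymerase I (-0.82, adjusted p 6.65e-06), riok1 (-0.60), nob1 (-0.43) and nop2 (-0.44). At 0.5 hpi, when the ribosomal protein genes had a median of 0.00, the biogenesis genes had a median of 0.26, with 60 of 64 positive. Of the 64, 23 had an unadjusted p under 0.05, against 2809 of all 21650 genes, and 0 were called in the edgeR test. Without the 4 libraries that stood apart 39 of the 64 were called higher and 1 lower at 0.5 hpi, with a median of 0.49. Among all genes 6.38% were called higher and 6.54% lower. At 0.5 hpi that fit holds only insulin replicates 3 and 4, against PBS replicates 2, 3 and 4. The counts were also 39 and 1 with the PBS pair summed as well.

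Of 37 genes of the mTORC1 pathway and of translation control tested, 10 were higher at 4 hpi, 27% of the list against 14% of all genes, and 4 were lower, 10.8% against 14.6%. The higher ones included eif4ebp1, which encodes an inhibitor of cap-dependent initiation (0.52, adjusted p 0.000478), pdcd4b, an inhibitor of the initiation helicase (0.90), and the kinase gene eif2ak3 (0.99). The lower ones included rps6kb1a, which encodes an S6 kinase (-0.89, adjusted p 0.000120), and rictora, a subunit of mTORC2 (-0.78). Of 22 genes of the p53 response tested, 9 were lower, 40.9% of the list, and 2 higher, 9.09%, and the lower ones included cdkn1a (-0.99) and bbc3 (-1.21), targets of p53 in cell cycle arrest and cell death.

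**Figure D5:**
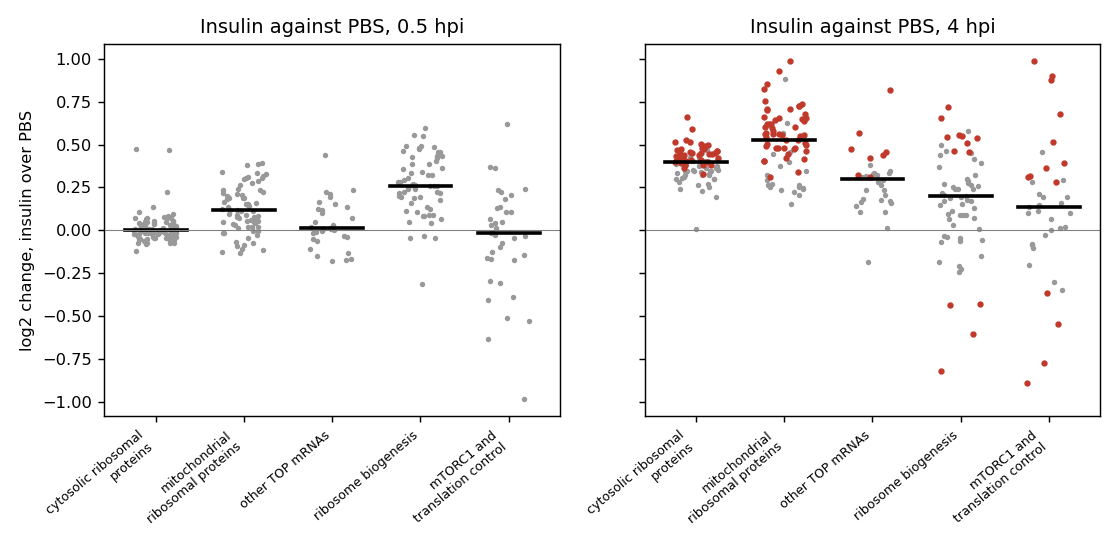
The log2 change of insulin over PBS at 0.5 hpi (left) and 4 hpi (right) for each tested gene of 5 lists; red points passed at an adjusted p under 0.05 and black lines are medians. At 4 hpi the cytosolic and mitochondrial ribosomal proteins lie above 0, with medians of 0.40 and 0.53; at 0.5 hpi the ribosome biogenesis list has the highest median, 0.26.

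Markers of other tissues were compared at 4 hpi in 8 lists. The summed level of 9 exocrine pancreas markers was 1890 to 3366 CPM in the insulin libraries and 1035 to 1625 CPM in the PBS libraries, with all 9 estimates positive and 4 called higher. The summed level of 9 macrophage and neutrophil markers was 131 to 143 CPM after insulin and 213 to 319 CPM after PBS. The lower sum sat with 1 gene, mmp9, a protease gene that is induced in inflammation, with a mean of 36.5 CPM after insulin and 186 CPM after PBS (-2.34, called lower). Most of this list went the other way, with 6 of 9 estimates positive, a median of 0.35 and coro1a called higher (0.78). Of 12 erythroid markers none was called in the edgeR test, and 1 had an unadjusted p under 0.05, against 8904 of all 21650 genes. The sum of these markers was 1799 to 4617 CPM after insulin and 2364 to 2776 CPM after PBS. Of 10 muscle markers 8 estimates were positive, with a median of 0.37; acta1a (0.52) and tnnt3a (0.53) were called higher and the myosin genes myhz1.1 (-0.50) and myhz2 (-0.52) lower, and the sum was 28064 to 36993 CPM after insulin and 31680 to 33411 CPM after PBS. Of 11 photoreceptor and lens markers 10 were positive and the opsin genes opn1mw1 (0.57) and opn1lw2 (0.51) were called higher, with sums of 3804 to 9318 CPM after insulin and 5264 to 6124 CPM after PBS. Of 9 liver markers 8 were positive and 1 was called, cp, which was lower (-0.76), with sums of 6449 to 9835 CPM after insulin and 6390 to 7255 CPM after PBS. Of 6 skin markers 3 were positive and epcam (-0.95) and cldne (-0.48) were called lower, with sums of 9787 to 13178 CPM after insulin and 11444 to 11951 CPM after PBS. Of 8 neuron markers 3 were positive, none was called in the edgeR test and 1 had an unadjusted p under 0.05, with sums of 1368 to 2081 CPM after insulin and 1972 to 2097 CPM after PBS. Except for the macrophage and neutrophil list, 1 end of each insulin range came from insulin replicate 1, which stood apart. The other insulin libraries had photoreceptor and lens sums of 7464 to 9318 CPM, above all PBS libraries. Their muscle sums were 28064 to 30228 CPM, below all PBS libraries. Their erythroid, liver, skin and neuron sums still overlapped those of PBS. The part of these tissues in the levels of the ribosomal protein genes was not tested.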

How the data were processed

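Whole-embryo RNA was sequenced in 16 libraries. The deposited tables hold counts, whole reads per gene for 31452 genes, made by the authors on the Zv9 build per the submitters' processing notes; which tool aligned and counted the reads, and whether by strand, is not given in the sources used here, so near-identical loci are uncertain. A closing line of size factors, which names no gene, was not used, and 9 file headers name a sequencing lane. The members and lists were chosen with earlier results of these data known.

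Counts were filtered with filterByExpr and scaled by TMM in edgeR 4.0.16 (R 4.3.3). One quasi-likelihood model (glmQLFit, robust, and glmQLFTest, two-sided) was fitted to 21650 genes over the 4 groups with 12 residual degrees of freedom, and p-values were adjusted by Benjamini-Hochberg over these genes, with a threshold of 0.05. Adjusted p-values come from this test unless DESeq2 1.42.0 is named; limma 3.58.1 was an alternative. The test was tried on simulated counts. Genes named were the 8 with the smallest p per direction among those that passed, or the 2 with the smallest p where none passed, the members with known roles, and the 3 with the highest and the 3 with the lowest mean level; further genes of other lists were named after their values were seen, and some genes are not reported here. Nothing says that replicates came from separate clutches, so p-values measure the spread between pools. Counting error was compared between replicates by a chi-square per gene with at least 20 reads.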

Additional observations from a re-analysis of the deposited data

Results flagged for a closer look

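Each group of 4 libraries was checked at its low and high end, for the named members, share of reads and subunit ratio. In 4 of these 288 checks 1 library lay far from the other 3. The members rose and fell together, so the checks are not independent. With both ends counted, chance flags about 1 in 20 such groups of 4 libraries, more than were found. rpl11 had 613 CPM in insulin replicate 2 at 0.5 hpi, against 508 to 522 CPM in the other 3 libraries. rpl39 had 450 CPM in the same library, against 358 to 372 CPM; this library is 1 of the 4 that stood apart. rps14 had 578 CPM in PBS replicate 3 at 4 hpi, against 550 to 554 CPM in the others. The second locus of rps20 (ENSDARG00000095880) had 223 CPM in PBS replicate 1 at 4 hpi, against 134 to 143 CPM, in a library where the family as a whole was low.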

How the results depend on the processing

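At 4 hpi the median log2 difference of insulin against PBS stayed positive in all fits run, and the number of members called ran from 5 to 77 when single libraries were left out. It was 43 with the replicate block, 38 of them shared with the fit without it; the correlations of same-numbered libraries ran from -0.18 to 0.55, so the numbers were not taken to pair the samples, and the block left the other counts at 0. It was 26 with limma voom, 27 with the nearly identical PBS pair summed and 0 within lane 5, while DESeq2 (60), its size factors (46), library totals (30), no filter (39) and a filter at 10 CPM (40 of 85 tested) stayed within 1.5 times. Other counts were 0 as reported. At 0.5 hpi leaving out single libraries gave 0 to 2, and leaving out the 4 libraries that stood apart gave 2, with or without the PBS pair summed. For the interaction the range was 0 to 8, with 3 by DESeq2, 1 without the 4 libraries (also with the pair summed) and 9 with a term for them. With that term 1452 of all 21650 genes passed as higher and 1996 as lower in the interaction. For the DESeq2 counts in this section the share of all genes called is not given. For PBS at 4 against 0.5 hpi it was 0 to 35, with 5 by DESeq2, 2 from those groups alone, 2 without the 4 libraries, 1 with the PBS pair summed as well and 1 with a term for them. For insulin at 4 against 0.5 hpi it was 0 with each single library left out and 1 without the 4 libraries, also with the pair summed. The median at 0.5 hpi lay between -0.11 and 0.11 when single libraries were left out, and its sign changed with the scaling. With library totals the median of all genes in the interaction was -0.10, against 0.01 as reported, and the members' median was 0.27. Leaving the 20 most abundant other genes out of the totals gave mean shares of 6.65% (insulin, 0.5 hpi) and 5.59% (PBS, 4 hpi). Values of single named genes were counted where the gene passed as reported or under the alternative. Of these, 345 passed in both, 105 newly passed, 75 no longer passed and 0 changed direction. The fits on the libraries that stood apart, the summed PBS pair and lane 5 were chosen after seeing the data. The cause of these shifts was not tested. Depth limits the 4 members with under 500 reads in some library, the lowest at 33 reads.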
